A study of Mus musculus with 8 samples.

Results

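This is a description of 55 mouse genes of cell division in embryonic brains of 2 maternal diets: the mitotic kinesins, the kinetochore and its checkpoint, the mitotic kinases, the machinery of cytokinesis, and the cyclins and ubiquitin enzymes that time the exit from mitosis. The genes were listed by name from a table of 33971 genes, with earlier results of these data known. All 55 were found in the table and all 55 had enough reads to be tested, among 19367 genes tested in all. Whole brains of wild-type (WT) embryos from WT dams mated with WT males were collected at E14.5, a stage of mid-gestation, and polyadenylated RNA was sequenced in bulk. The dams received a choline-deficient diet (CDD, 4 brains) or a normal chow diet (ND, 4 brains). The series descriptions start the diets on the mating day, and the study's methods give that start for the CDD of these brains. In another experiment of the study, a vessel staining, the CDD began before mating. The number of dams and litters behind each group of 4 brains is not stated, so the spread between brains may be that of littermates. The study turned to this diet as a nutritional counterpart to the loss of a choline transporter of the blood-brain barrier, and the comparison asks which transcripts differ in brains of embryos whose mothers lacked dietary choline.

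A dividing cell captures each chromosome at its kinetochore, a protein assembly built on the centromere, and pulls the copies apart on a spindle of microtubules. Kinesins slide, cross-link and depolymerize these microtubules, the spindle checkpoint holds the cell until every kinetochore is attached, and the anaphase promoting complex then ends mitosis by marking cyclin B and securin for destruction. At mid-gestation in the mouse brain most divisions take place in the ventricular zone, where neural progenitors line the ventricles, and most of the genes described here are transcribed in a burst late in the cell cycle and are nearly silent in postmitotic neurons.

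Many genes of this burst carry 2 short promoter elements, the cell cycle genes homology region (CHR, searched as TTTGAA or TTCGAA), which binds the DREAM and MuvB complexes, and the CCAAT box, which binds NF-Y. Promoter windows from 250 bases before to 50 bases after the gene start were taken from RefSeq (build GRCm38.p6) and were matched for 49 of the 55 genes. The 6 genes with no entry were *Aurkb*, *Ccna2*, *Incenp*, *Kif20a*, *Spc24* and *Tpx2*. The 120 bases before the start are printed for a few genes, picked after their values were seen, with CHR and CCAAT matches on either strand in capitals (on the other strand a CHR reads TTCAAA and a CCAAT box reads ATTGG). *Top2a* (chr11:99024190-99024309, minus strand), *Kif11* (chr19:37376262-37376381, plus strand) and *Kif15* (chr9:122950961-122951080, plus strand) are shown because they stand among the genes that differed most between the diets:
Top2a: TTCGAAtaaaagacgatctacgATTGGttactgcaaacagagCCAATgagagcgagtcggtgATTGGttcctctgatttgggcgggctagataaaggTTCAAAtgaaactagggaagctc
Kif11: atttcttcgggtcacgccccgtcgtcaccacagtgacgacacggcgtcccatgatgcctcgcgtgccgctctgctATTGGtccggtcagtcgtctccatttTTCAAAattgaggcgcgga
Kif15: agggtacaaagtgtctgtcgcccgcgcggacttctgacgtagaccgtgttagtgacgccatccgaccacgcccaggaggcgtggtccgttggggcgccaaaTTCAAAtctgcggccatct

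*Cdc20* (chr4:118437344-118437463, minus strand), *Ube2c* (chr2:164769809-164769928, plus strand) and *Cdk1* (chr10:69352913-69353032, minus strand) are shown as genes of mitotic entry and exit with CHR and CCAAT matches:
Cdc20: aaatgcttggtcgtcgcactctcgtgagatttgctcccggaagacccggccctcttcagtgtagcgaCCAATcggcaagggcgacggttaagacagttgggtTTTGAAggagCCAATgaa
Ube2c: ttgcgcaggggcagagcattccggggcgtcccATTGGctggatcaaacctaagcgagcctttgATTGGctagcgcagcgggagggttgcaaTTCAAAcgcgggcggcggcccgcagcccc
Cdk1: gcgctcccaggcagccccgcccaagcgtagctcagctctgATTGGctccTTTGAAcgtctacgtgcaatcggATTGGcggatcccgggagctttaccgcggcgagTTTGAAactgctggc

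*Ccnb1* (chr13:100786487-100786606, minus strand) is shown as a gene with CCAAT matches and no CHR match in its window, and *Cenpt* (chr8:105852009-105852128, minus strand) as a gene with neither, whose fold change between the diets was below 0:
Ccnb1: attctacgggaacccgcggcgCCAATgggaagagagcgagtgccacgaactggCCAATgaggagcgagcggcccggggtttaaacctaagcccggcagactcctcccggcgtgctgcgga
Cenpt: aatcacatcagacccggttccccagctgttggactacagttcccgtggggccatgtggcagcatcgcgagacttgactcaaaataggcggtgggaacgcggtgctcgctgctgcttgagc

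A CHR match was present in the windows of 35 of the 49 genes (71.4%), against 21.7% of all 27025 genes in the table. A CHR match within 50 bases of the start, on either side, was present for 31 of the 49 genes (63.3%), against 6.12% of all genes. CCAAT was found for 36 of the 49 (73.5%, against 41.1%), and both elements for 29 (59.2%, against 8.61%). An E2F-like element (TTTNGCGC, either strand) was found for 4 of the 49 (8.16%, against 1.57%). The median log2 fold change was 0.27 for the 35 genes with a CHR match, of which 21 were called higher, and 0.28 for the 14 without one, of which 7 were called higher. It was 0.24 for the 36 genes with a CCAAT match, of which 19 were called higher, and 0.31 for the 13 without one, of which 9 were called higher. A match says only that these letters stand in the window.

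**Figure D1:**
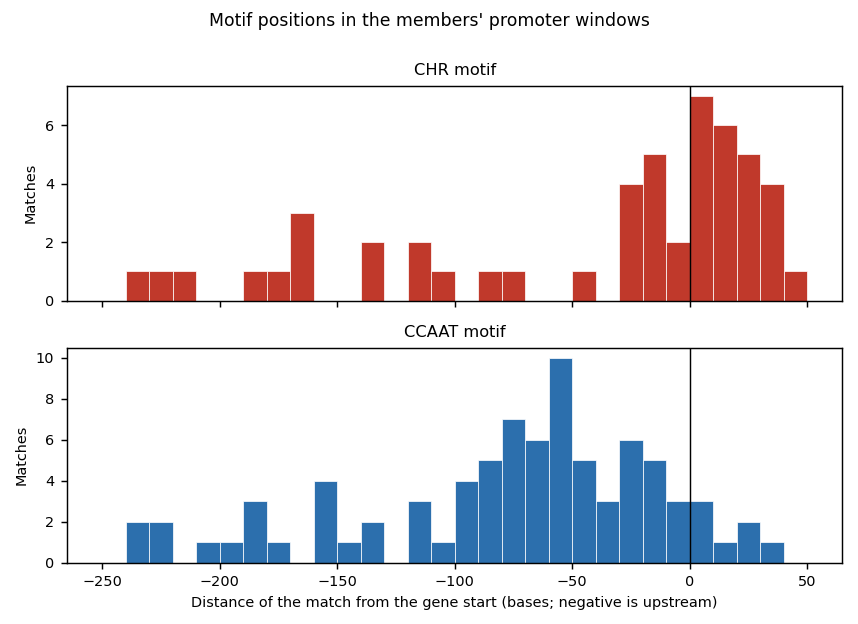
Positions of CHR matches (top) and CCAAT matches (bottom) in the RefSeq promoter windows of the 49 matched genes, as the number of matches per 10 bases along the distance from the gene start. A gene with several overlapping windows was counted in each of them, so the same site can appear more than once. CHR matches crowd around the start, within 50 bases of it for 31 of 49 genes, and CCAAT matches lie mostly upstream of that.

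The libraries held between 31770217 and 43121170 counted reads. CDD brain 2 stood apart in that it held RNA of caudal Hox genes (*Hoxa5*, *Hoxb5*, *Hoxb6*, *Hoxb8* and *Hoxc6*), markers of the caudal hindbrain and spinal cord, at a sum of 75.5 CPM (counts scaled to library size, with the same constant for all brains), where the other 7 brains held between 0 and 0.0302 CPM. Markers of primitive red blood cells were summed at 114 to 222 CPM in CDD and 33.3 to 44.99 CPM in ND brains. Leaving out CDD brain 2 gave 36 members called higher, in place of 34, and a median log2 fold change of 0.29, in place of 0.28. The share of all genes tested called higher was 3.15% in that fit, in place of 4.24%.

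Most of the 55 genes were higher in the brains of CDD embryos. Of the 55 genes, 34 were higher in CDD by edgeR's quasi-likelihood test (adjusted p-value under 0.05), 0 were lower and 21 were not called. Among all genes tested, 4.24% were called higher and 4.59% lower. The fold change was above 0 for 53 of the 55, and 48 were higher and 1 lower at an unadjusted p-value under 0.05, a threshold that 11.8% of all genes tested passed as higher and 12.1% as lower. The median log2 fold change was 0.28, or 21.1% more RNA in CDD, beside a median of -0.0038 over all genes tested, and the values of the 55 ran from -0.13 to 0.52. In 31 of them every CDD brain was above every ND brain, which was so for 7.65% of all genes tested. Summed over the 55 genes, CDD brains 1 to 4 held 2367, 2133, 2145 and 2425 CPM and ND brains 1 to 4 held 1841, 1983, 1771 and 1806 CPM. The diets did not overlap in this sum, and CDD brains 1 and 4 lay above CDD brains 2 and 3. In RNA from whole brains, more cells in mitosis and more RNA per such cell cannot be told apart. The number of calls depended on single brains. It was 15 without ND brain 3, 17 without ND brain 4 and 21 without ND brain 1. In these fits 1.04%, 1.42% and 1.52% of all genes tested were called higher. Without CDD brain 1 the number was 23, with 3.13% of all genes tested called higher. Of the 34 genes, 15 were called with any single brain left out.

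**Figure D2:**
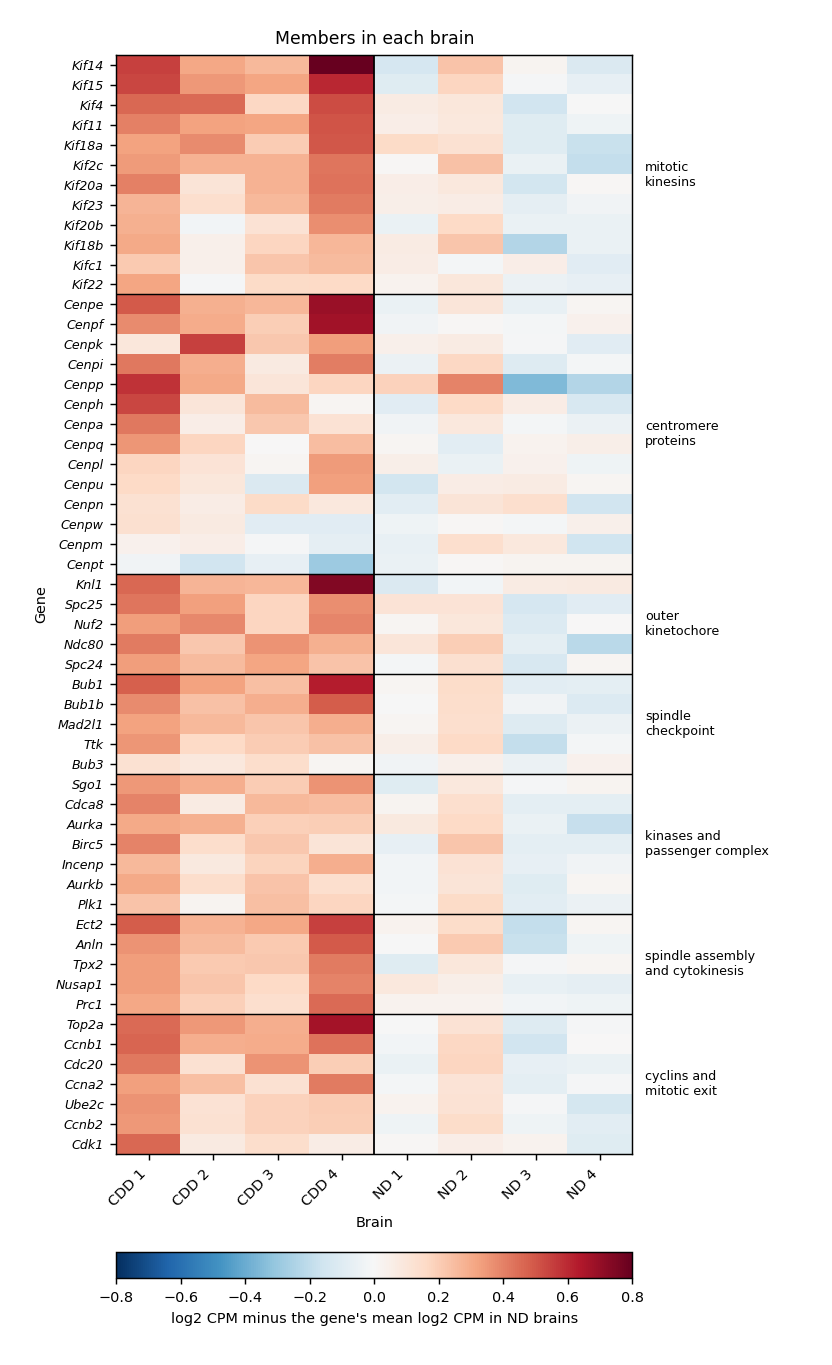
Heat map of the 55 genes (rows, grouped by role) in the 8 brains (columns), as log2 CPM minus the gene's mean log2 CPM over the 4 ND brains. Nearly all rows are red in the 4 CDD columns, with CDD 1 and CDD 4 the darkest, while *Cenpt* is blue there.

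Within each diet, a few brains held the extreme values for most of the genes. CDD brain 4 was the highest of the 8 brains for 27 genes and CDD brain 1 for 22. ND brain 3 was the lowest for 24 genes and ND brain 4 for 19. ND brain 2 was the highest of the ND brains for 43 of the 55 genes, so its values lay nearest to those of the CDD group. The median coefficient of variation between brains of a diet was 8.52% in CDD and 7.11% in ND.

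The mitotic kinesins are motor proteins that build the spindle, move chromosomes along it and act in the final cut between daughter cells. All 12 were above 0, with a median log2 fold change of 0.32, and 8 were called higher. The authors list *Kif11* on chromosome 19, 37364851 to 37410307, in a build that is not named. These positions do not line up with those of the GRCm38.p6 promoter windows. *Kif11* encodes the motor that pushes the spindle poles apart. It was at 102.6, 96.7, 96.4 and 109.9 CPM in CDD brains 1 to 4 and at 80.2, 82.1, 72.4 and 75.6 CPM in ND brains 1 to 4. Every CDD brain was above every ND brain, and the log2 fold change was 0.39 (SE 0.051, adjusted p = 0.000671 by the edgeR quasi-likelihood test). *Kif14*, a kinesin of the midbody that is needed for cytokinesis, had the largest log2 fold change of the 55, 0.52 (SE 0.14, adjusted p = 0.0455). Its CPM values were 21.8, 18.5, 17.8 and 27.7 in CDD and 13.6, 17.4, 15.2 and 13.8 in ND. CDD brain 4 was the highest, and CDD brain 3 lay just above ND brain 2. Without CDD brain 4 the log2 fold change was 0.37 (adjusted p = 0.014 by the edgeR quasi-likelihood test). The call was lost without any one of CDD brain 1 and ND brains 1, 3 and 4. It was also lost in limma-voom (adjusted p = 0.0526), with RLE normalization (0.0508) and with *Xist* as a covariate (0.127). *Kif15*, which works beside *Kif11* in holding the spindle bipolar, was higher at a log2 fold change of 0.45. *Kif4*, which shapes chromosomes and the midzone, was higher at 0.40. *Kif18a* and *Kif2c*, whose products shorten microtubules, *Kif20a* and *Kif23*, whose products act at the central spindle, were called higher as well. *Kifc1*, *Kif18b*, *Kif20b* and *Kif22* had log2 fold changes between 0.16 and 0.19 and were not called. With single brains left out, the number of kinesins called ran from 3 (without ND brain 3) to 10, and was 4 without ND brain 4.

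The centromere proteins had the lowest median of the 7 role groups, a log2 fold change of 0.20. Of 14 genes, 3 were called higher and 12 were above 0. *Cenpe*, a kinesin that carries chromosomes to the spindle equator, was at 63.3, 54.8, 54.2 and 72.7 CPM in CDD and 43.4, 48.3, 43.2 and 45.5 CPM in ND brains. No CDD brain reached down to the ND range, and the log2 fold change was 0.44 (SE 0.083, adjusted p = 0.00685 by the edgeR quasi-likelihood test). *Cenpf*, a large protein of the outer kinetochore corona, was higher at 0.40, and *Cenpi* at 0.30 with CDD brain 3 inside the ND range. The call of *Cenpi* was lost without any one of CDD brains 1, 2 and 4 and ND brains 1, 3 and 4, and in limma-voom, with upper-quartile normalization and with *Xist* as a covariate. *Cenpe* and *Cenpf* both belong to the outer face of the kinetochore. Of the 11 members of the constitutive network, the inner layer that stays on the centromere throughout the cell cycle, 1 was called higher (*Cenpi*) and the median log2 fold change was 0.16. *Cenpa*, the histone that marks the centromere, had a log2 fold change of 0.21 and was not called.

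*Cenpt* and *Cenpm*, both of that inner network, were the 2 genes with a fold change below 0. *Cenpt* links the inner kinetochore to the NDC80 complex. It was at 50.9, 46.7, 49.5 and 42.4 CPM in CDD and at 50, 52.2, 52.7 and 52.7 CPM in ND brains. CDD brain 4, the highest brain for 27 of the genes, was the lowest for *Cenpt*, CDD brain 1 lay inside the ND range, and the log2 fold change of -0.13 (SE 0.056) was not called (adjusted p = 0.157 by the edgeR quasi-likelihood test). *Cenpm* was at 7.698, 7.82, 7.48 and 7.15 CPM in CDD and at 7.23, 8.25, 7.98 and 6.76 CPM in ND. The diets overlapped fully, and its log2 fold change of -0.0024 took the other sign under many alternatives. The number of centromere proteins called was 1 without ND brain 1 or ND brain 3, and 2 without CDD brain 1 or ND brain 4.

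The outer kinetochore is the part that binds microtubules, and all 5 of its genes on the list were called higher, with a median log2 fold change of 0.32. *Nuf2*, a subunit of the NDC80 complex, was at 26.8, 27.6, 23.9 and 27.8 CPM in CDD and at 21.4, 22.6, 19.7 and 21.3 CPM in ND brains. The diets did not overlap, and the log2 fold change was 0.32 (SE 0.067, adjusted p = 0.00693 by the edgeR quasi-likelihood test). *Knl1*, the scaffold on which checkpoint proteins gather, was at 29.3, 25.7, 25.6 and 35.6 CPM in CDD and 19.7, 20.9, 22.3 and 22.4 CPM in ND. All CDD brains were above the ND brains, most of all CDD brain 4, and the log2 fold change was 0.44 (SE 0.093). The other 3 subunits of the NDC80 complex, *Ndc80*, *Spc24* and *Spc25*, had log2 fold changes of 0.28 to 0.32 with no overlap between the diets. The number called was 2 (*Nuf2* and *Knl1*) without ND brain 3 or ND brain 4, and 3 without CDD brain 1 or ND brain 1.

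**Figure D3:**
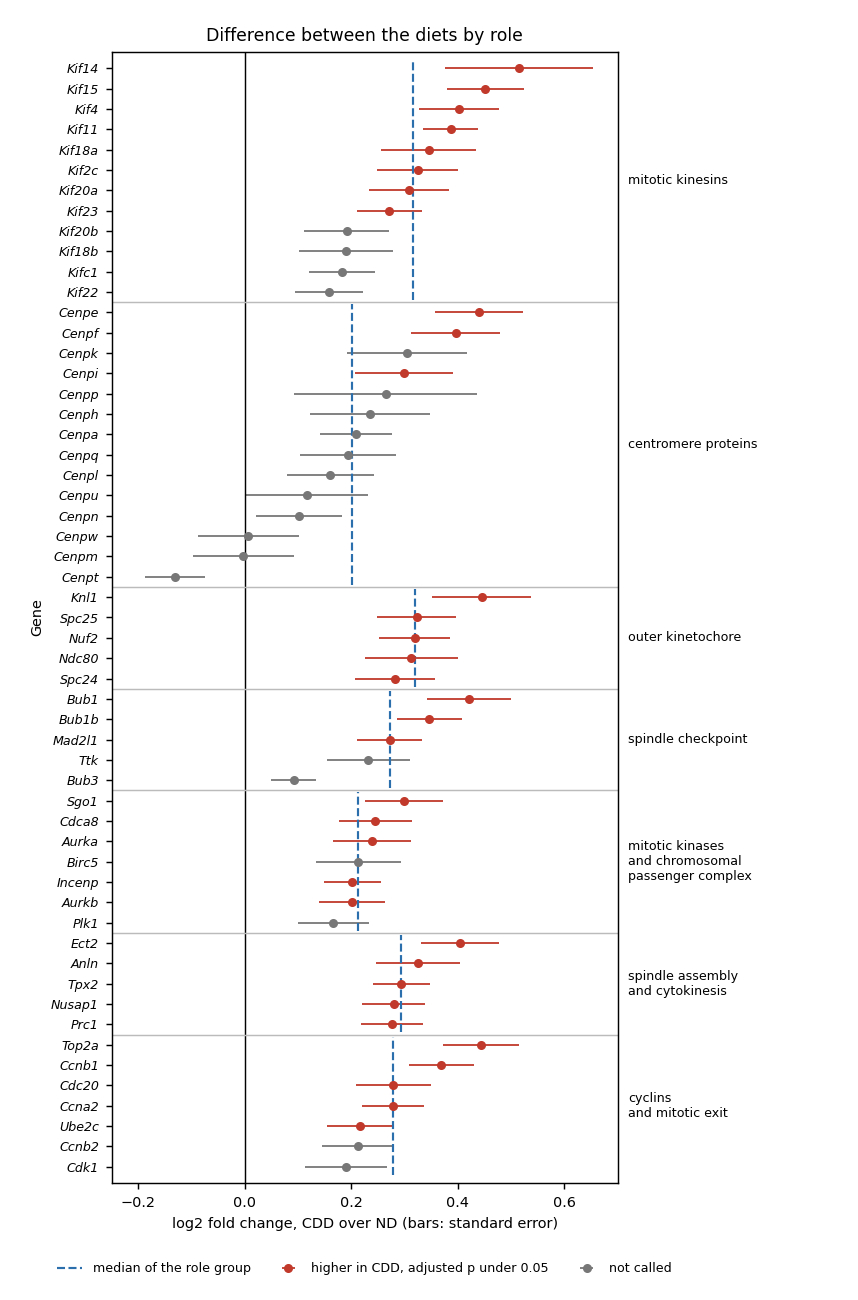
Log2 fold change of CDD over ND for the 55 genes, with standard errors as bars, grouped by role. Red points were higher at an adjusted p-value under 0.05 (34 genes), grey points were not called (21 genes), and the dashed line in each group is its median, from 0.20 for the centromere proteins to 0.32 for the outer kinetochore and the kinesins.

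Of the 5 genes of the spindle checkpoint, 3 were called higher, with a median of 0.27. *Bub1b*, which encodes the BubR1 subunit of the mitotic checkpoint complex, was at 59.6, 53.8, 56.1 and 64.0 CPM in CDD and at 45.7, 50.5, 45.02 and 42.5 CPM in ND brains. The diets did not overlap, and the log2 fold change was 0.35 (SE 0.061, adjusted p = 0.00287 by the edgeR quasi-likelihood test). *Bub1*, the kinase that recruits the others, was at 36.2, 32.5, 30.7 and 40.1 CPM in CDD and at 26.3, 28.8, 24.5 and 24.6 CPM in ND, again with no overlap, and had a log2 fold change of 0.42 (SE 0.079). *Mad2l1*, which encodes the checkpoint effector MAD2, was higher at 0.27. *Ttk*, the kinase at the head of the checkpoint, had a log2 fold change of 0.23 and was not called. *Bub3*, the partner of both Bub proteins, was at 103.6 ± 4.04 CPM in CDD and 97.2 ± 2.87 CPM in ND (SD, n = 4) and was not called, with a log2 fold change of 0.09. The number called was 2 without ND brain 3 or ND brain 4.

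The mitotic kinases and the chromosomal passenger complex, which corrects faulty attachments and later marks the cleavage plane, had a median between those of the centromere proteins and the checkpoint. Of these 7 genes 5 were called higher, the median log2 fold change was 0.21, and the diets did not overlap in 3. *Sgo1*, the protector of centromeric cohesion, was at 15.7, 15.1, 14.2 and 15.8 CPM in CDD and at 11.6, 13.1, 12.3 and 12.5 CPM in ND brains. Every CDD brain was above the ND range, at a log2 fold change of 0.30 (SE 0.073, adjusted p = 0.0166 by the edgeR quasi-likelihood test). Among the subunits of the passenger complex, *Aurkb* (its kinase), *Incenp* (its scaffold) and *Cdca8* (borealin) were called at 0.20 to 0.24, while *Birc5* (survivin) was not called at 0.21, with ND brain 2 above CDD brains 2, 3 and 4. The call of *Aurkb* was lost with upper-quartile normalization, and without any one of CDD brains 1 and 3 and ND brains 1, 3 and 4. *Aurka*, the kinase of the spindle poles, was higher at 0.24, and *Plk1*, a kinase of many mitotic steps, was not called at 0.17. None of the 7 was called without ND brain 1, ND brain 3 or ND brain 4, and 1 was called without CDD brain 1.

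The 5 genes of spindle assembly and cytokinesis were all called higher without overlap between the diets, at a median log2 fold change of 0.29, and 4 of the 5 were called whichever brain was left out. *Tpx2*, which nucleates spindle microtubules and activates Aurora A, was at 87.6, 80.1, 80.4 and 92.4 CPM in CDD and at 64.7, 73.9, 68.9 and 70.1 CPM in ND brains. The lowest CDD brain exceeded the highest ND brain, and the log2 fold change was 0.29 (SE 0.053, adjusted p = 0.00301 by the edgeR quasi-likelihood test). *Ect2*, the exchange factor that switches on RhoA at the cleavage furrow, was at 48.4, 42.0, 42.8 and 50.6 CPM in CDD and at 35.2, 38.3, 30.4 and 35.0 CPM in ND, with a log2 fold change of 0.40 (SE 0.073). *Prc1* and *Nusap1*, which bundle microtubules, and *Anln*, which ties actin and myosin together in the furrow, were higher at 0.28 to 0.33.

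Of the cyclins and the genes of mitotic exit, 5 of 7 were called higher, with a median of 0.28. *Top2a*, the topoisomerase that untangles sister chromatids, was the most abundant of the 55 by FPKM (normalized counts scaled to gene length), at a mean of 29.0 FPKM over the 8 brains. It was at 304, 283, 271 and 351 CPM in CDD and at 222, 240.2, 207 and 220.4 CPM in ND brains. The diets did not overlap, CDD brain 4 was the highest, and the log2 fold change was 0.44 (SE 0.071, adjusted p = 0.00287 by the edgeR quasi-likelihood test). *Ccnb1*, the cyclin that drives entry into mitosis, was at 72.1, 63.9, 64.1 and 70.5 CPM in CDD and at 51.4, 58.7, 47.0 and 52.4 CPM in ND, which was a log2 fold change of 0.37 (SE 0.062). Its promoter window, printed above, held CCAAT matches and no CHR match. *Ccna2*, the cyclin of S and G2 phase, was at 77.8, 73.2, 67.4 and 82.4 CPM in CDD and at 61.2, 66.8, 58.6 and 61.4 CPM in ND (log2 fold change 0.28, SE 0.058). In both cyclins the lowest CDD brain was above the highest ND brain.

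*Cdc20* and *Ube2c*, the activator and the ubiquitin-conjugating enzyme of the anaphase promoting complex, were the next most abundant, at a mean of 24.1 and 18.1 FPKM. *Cdc20* was at 54.8, 44.3, 52.5 and 46.8 CPM in CDD and at 39.4, 46.0, 39.0 and 39.4 CPM in ND brains. *Ube2c* was at 56.1, 47.4, 49.7 and 50.4 CPM in CDD and at 44.7, 47.4, 43.5 and 39.7 CPM in ND. In both genes ND brain 2 reached CDD brain 2, so the diets overlapped. The log2 fold changes were 0.28 (SE 0.070) and 0.22 (SE 0.062), with adjusted p-values of 0.0204 and 0.0359 by the edgeR quasi-likelihood test, and both calls were lost without any one of CDD brain 1 and ND brains 1, 3 and 4. *Ccnb2*, another B-type cyclin, was at 29.9, 25.7, 26.7 and 27.0 CPM in CDD and at 23.0, 26.1, 23.0 and 22.2 CPM in ND, and was not called (log2 fold change 0.21, adjusted p = 0.0559). *Cdk1*, the kinase partner of the B-type cyclins, was not called at 0.19, although the CDD values, from 37.5 to 49.5 CPM, all exceeded the ND values, from 33.7 to 37.4 CPM. The number called was 3 without CDD brain 1, ND brain 1, ND brain 3 or ND brain 4.

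**Figure D4:**
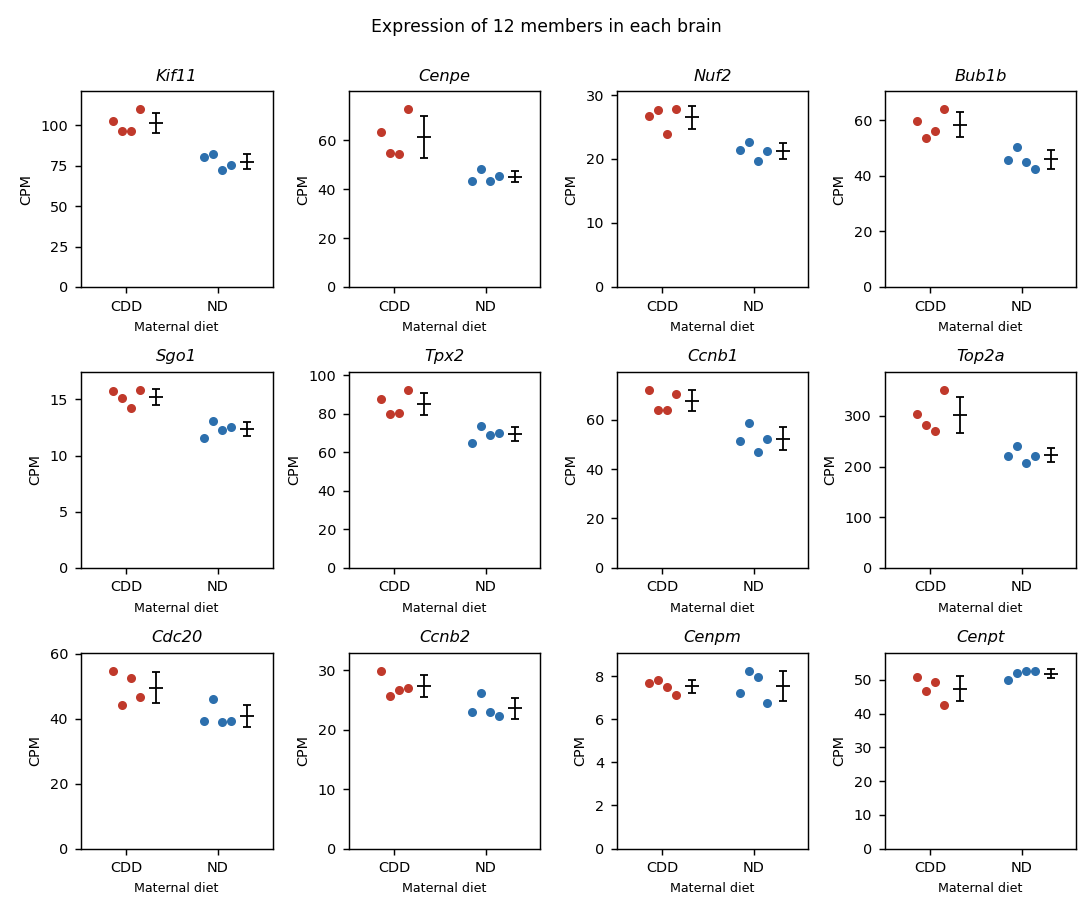
CPM of 12 of the genes in each brain (points, CDD red and ND blue), with mean and SD of each diet as black bars and all axes starting at 0. The diets do not overlap for *Kif11*, *Cenpe*, *Nuf2*, *Bub1b*, *Sgo1*, *Tpx2*, *Ccnb1* and *Top2a*, ND brain 2 overlaps with the CDD brains for *Cdc20* and *Ccnb2*, and *Cenpm* and *Cenpt* are not higher in CDD.

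Fold changes were larger among the longer of the 55 genes. The log2 fold change went with the log2 gene length at a Spearman rho of 0.52 and a Pearson r of 0.51, across genes that share the same 8 libraries, and over all genes tested rho was 0.083. The 28 genes at or above the median length of 4363 bases had a median log2 fold change of 0.31 with 20 called higher, and the 27 shorter genes 0.22 with 14 called higher. With each library's trend on gene length removed, rho was 0.39, the medians were 0.31 and 0.26, and 21 and 16 genes were called. The part of transcript length in the differences between genes was not tested beyond this offset.

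The rest of the mitotic machinery was taken from lists of genes outside the 55. Of 18 condensin and cohesin genes, which fold and hold chromosomes, 13 were called higher and 0 lower, at a median of 0.21, though the count was 2 without ND brain 3, 5 without ND brain 1 and 6 without ND brain 4. *Ncapg*, a condensin I subunit, had the highest value of that list, 27.9, 26.4, 23.8 and 30.6 CPM in CDD against 20.7, 23.9, 20.04 and 19.2 CPM in ND (log2 fold change 0.37), with CDD brain 3 just inside the ND range. *Ncaph2*, a condensin II subunit, had the lowest, 0.04. Of 28 other genes of the spindle and cytokinesis, 12 were called higher and 0 lower at a median of 0.21, led by *Hmmr*, a spindle pole protein, at 0.43. The lowest of them was *Haus5* of the augmin complex at -0.17, not called. That count was 5 without ND brain 3 and 7 without ND brain 1.

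Among other genes of the centromere and kinetochore, 4 of 25 were called higher and 0 lower, at a median of 0.14. *Oip5*, part of the machinery that loads CENP-A, was higher at a log2 fold change of 0.52, at 4.71 to 5.61 CPM in CDD and 3.13 to 4.22 CPM in ND. *Cenpx*, of the inner network, was the lowest at -0.22 and not called. This count was 1 without ND brain 1 or ND brain 3 and 2 without CDD brain 1 or ND brain 4. Among 9 genes of mitotic entry, 2 phosphatases that activate CDK1, *Cdc25a* and *Cdc25b*, were called higher at 0.20 and 0.18, with 1 of the 9 called without CDD brain 1 and 0 without ND brain 1, 3 or 4. *Cdc25c* had the highest value, 0.24, and *Pkmyt1*, an inhibitory kinase, the lowest, 0.04, and neither was called. Of 22 transcription regulators of mitotic genes, 5 were called higher at a median of 0.12. They were *Foxm1* (0.23) and *Mybl2* (0.30), activators of the late cell cycle genes, *Rbbp4* (0.14), *Rbl1* (0.31), which encodes the pocket protein p107, and *Tfdp2* (0.29). The lowest of that list was *Lin37* of the MuvB core at -0.17, not called, and the count was 2 without ND brain 1 or ND brain 3 and 3 without CDD brain 1 or ND brain 4.

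The lists of the core anaphase promoting complex, which itself acts in mitosis, and of the transport kinesins had median log2 fold changes near 0. Of the 16 core subunits and partners of the anaphase promoting complex, 0 were called in either direction by the edgeR quasi-likelihood test, 4 were higher and 1 lower at an unadjusted p-value under 0.05 (11.8% and 12.1% of all genes), and the median log2 fold change was 0.03. Their values ran from -0.15 for *Anapc11* to 0.13 for *Cdc27*, and without CDD brain 3 there were 1 higher and 1 lower call. Summed CPM of these genes was 1795 to 1830 in CDD and 1742 to 1775 in ND brains, without overlap. Of 21 kinesins and kinesin light chains that carry cargo along axons and dendrites, 1 was called higher (*Kif21a*, 0.17), 0 were called lower, and the median was 0.02, against 0.32 for the mitotic kinesins. The call of *Kif21a* was lost without CDD brain 4 or any single ND brain, and without CDD brain 3 the list had 2 genes called higher and 3 lower. The lowest of them was *Kifc2* at -0.32, which was not called.

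Of 10 markers of neural progenitors, 4 were called higher (*Nes*, *Pax6*, *Vim* and *Prom1*), 0 were called lower, 6 were not called and the median log2 fold change was 0.22. *Nes*, the intermediate filament of these cells, was at 321, 365, 332 and 425 CPM in CDD and at 261, 283, 251 and 246 CPM in ND brains (log2 fold change 0.47). *Fabp7*, a fatty acid binding protein of radial glia, was the lowest at -0.04. As a score, the log2 CPM of each marker relative to its own mean in the 8 brains was averaged over the list. It was 0.056 to 0.13 in CDD and -0.14 to -0.032 in ND, and that of the 55 mitotic genes was 0.21, 0.062, 0.058 and 0.19 in CDD brains 1 to 4 and -0.13, -0.019, -0.19 and -0.18 in ND brains 1 to 4. Both were free of overlap between the diets. The mitotic score minus the progenitor score was 0.085, -0.064, 0.0020 and 0.092 in CDD and -0.027, 0.014, -0.053 and -0.050 in ND brains. These differences overlapped, with a mean of 0.029 ± 0.074 in CDD and -0.029 ± 0.031 in ND (SD, n = 4).

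Among 6 markers of intermediate progenitors, which divide away from the ventricle, 3 were called higher, *Btg2* and *Neurog2* among them, at a median of 0.27. The list ran from -0.08 for *Insm1* to 0.46 for *Neurog1*, neither of which was called, and its count was 2 without ND brain 4. Of 11 markers of postmitotic neurons 0 were called higher and 2 lower, *Snap25* (-0.23) and *Gap43* (-0.18), at a median of -0.03, and *Nefm* had the highest value, 0.26, with 194.8 CPM in CDD brain 2 and 101.9 to 122.8 CPM in the other brains. The number of neuronal markers called lower was 4 without CDD brain 2, 1 without CDD brain 1, CDD brain 3 or ND brain 2, and 0 without ND brain 1, 3 or 4. Summed CPM of the neuronal markers was 7326 to 8167 in CDD and 7637 to 8021 in ND brains. The part of the progenitor and neuron content of the brains in the mitotic differences was not tested.

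**Figure D5:**
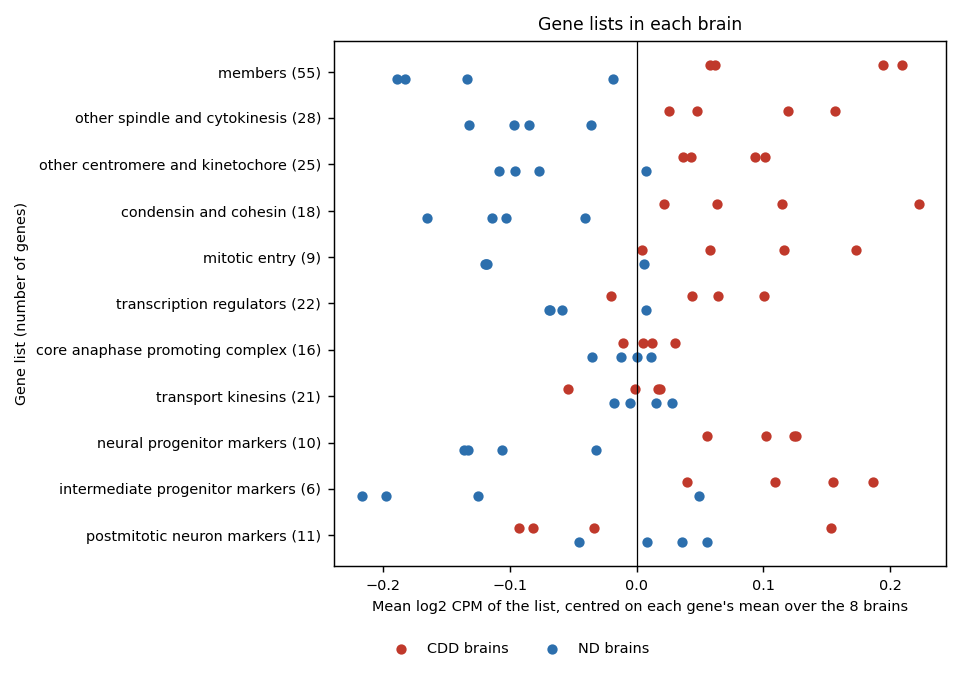
Score of each gene list in each brain, that is, the log2 CPM of each gene minus its mean in the 8 brains, averaged over the list (CDD red, ND blue), with the number of genes per list in brackets. The diets are apart for the 55 members, the neural progenitor markers, and the lists of other spindle, other centromere, and condensin and cohesin genes. They lie over each other around 0 for the core anaphase promoting complex, the transport kinesins and the postmitotic neuron markers.

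Markers of blood, vessel, immune, meningeal and choroid plexus cells did not follow the mitotic genes as a body. The 3 embryonic globins of primitive red blood cells were the exception in size. *Hbb-y* was at 165, 189, 93.8 and 115 CPM in CDD and at 30.2, 28.3, 34.4 and 26.2 CPM in ND brains (log2 fold change 2.24), and 2 of the 3 were called higher, 1 without ND brain 1 or ND brain 4. The lowest of the 3, *Hbb-bh1*, was at 0.33 to 0.91 CPM in CDD and 0.20 to 0.41 CPM in ND and was not called. Of 10 other erythroid markers 0 were called in either direction, and 0 passed an unadjusted p-value under 0.05, with *Hbb-bs* the lowest at -0.84. Summed, they were at 633 to 1234 CPM in CDD and 794 to 2953 CPM in ND. Endothelial markers had 1 of 6 called lower (*Cldn5*, -0.28) and *Pecam1* the highest at 0.09. Of these 6, 5 had a fold change below 0. Their summed CPM was 226.9 to 239.8 in CDD and 242.7 to 251.7 in ND brains, without overlap. Microglial markers had 1 of 7 called lower, with values from -0.33 for *C1qa* to 0.29 for *Aif1*, neither of which was called. Of these 7, 6 had a fold change below 0. At an unadjusted p-value under 0.05, 4 of them were lower (12.1% of all genes tested). Meningeal markers had 1 of 5 called higher (*Lum*, 0.29) and 2 lower, the lowest being *Col1a1* at -0.23. Without ND brain 1 or ND brain 3, none of the microglial and meningeal markers was called. Choroid plexus markers had 0 of 4 called, from -0.22 for *Kl* to 0.43 for *Clic6*, with 1 higher at an unadjusted p-value under 0.05. Summed, they were at 172 to 476 CPM in CDD and 271 to 315 CPM in ND. The part of these cells in the mitotic differences was not tested.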

How the data were processed

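Polyadenylated RNA of 8 whole E14.5 WT brains was compared by maternal diet, CDD (n = 4) against ND (n = 4), as the labels give it. The values deposited by the authors were unnormalized read counts of each gene, FPKM values made from size-factor-normalized counts with one common total, and their own comparison (log2 fold changes, p-values and adjusted p-values) with shorter lists drawn from it, which were not used. The submitters' processing notes name HISAT2 2.0.5, featureCounts 1.5.0-p3 and DESeq2 1.20.0. The genome build and the strand setting of the counting are not given in the sources used here. Libraries held 31770217 to 43121170 counts, and the common biological coefficient of variation of 0.0814 between brains sets the precision.

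Counts of all genes were filtered with filterByExpr, scaled by TMM and compared with edgeR's robust quasi-likelihood test (edgeR 4.0.16, R 4.3.3), with diet as the single term, and p-values were adjusted over all 19367 genes tested (Benjamini-Hochberg). Genes with an adjusted p-value under 0.05 were called. CPM refers to TMM-scaled libraries, and levels of different genes were compared by FPKM. Centred scores used a prior count of 2. Nothing in the labels says that brains came from separate litters, so p-values measure the spread between these brains. No pair of brains agreed within sampling noise (chi-square per degree of freedom of at least 3.76).

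The members, lists and tests were chosen with earlier results of these data known. Values in every brain are given for the member with the smallest p-value and the one with the largest log2 fold change in each role group, the 5 with the highest FPKM and those of opposite sign to the median, and the highest and lowest gene of each other list is named. Genes named beyond this rule were chosen after their values were seen. A gene that this rule selects is not reported here. *Hoxc8* was not found, and 0 of the 5 other Hox genes passed the filter. The alternatives were DESeq2 1.42.0, limma-voom (limma 3.58.1), RLE and upper-quartile normalization, no filter, a floor of 10 counts per brain, a replicate block, an offset for gene length (loess span 0.3), these 2 jointly, *Xist* as a covariate, a stricter adjusted p-value of 0.01, a minimum change of 1.5-fold, and each brain left out. Motifs were searched in Python 3.11.15 with pandas 2.3.3 and NumPy 2.4.6.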

Additional observations from a re-analysis of the deposited data

Results flagged for a closer look

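Of 160 groups of 4 brains (55 genes and 25 lists in 2 diets), 7 held a brain far from the other 3 by Dixon's ratio, where chance alone gives about 8. ND brain 2 was far above the other ND brains for *Kif20b*, at 24.0 CPM against 20.7 to 20.8 CPM. The same brain stood out for *Birc5*, at 23.1 CPM against 18.7 to 18.9 CPM, and for *Cdc20*, at 46.0 CPM against 39.0 to 39.4 CPM. The summed CPM of the other spindle and cytokinesis genes was 2942 in CDD brain 4 and 2558 to 2607 in the other CDD brains. The transport kinesins summed to 6075 CPM in ND brain 1 and to 6257 to 6290 CPM in the other ND brains. The Hox genes of the caudal hindbrain and spinal cord summed to 75.5 CPM in CDD brain 2 and 0 to 0.0302 CPM in the other CDD brains. They summed to 0.0289 CPM in ND brain 3 and 0 in the other ND brains. The value of ND brain 3 lies near the floor, and it was flagged because the other ND brains held 0.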

How the results depend on the processing

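With each brain left out, the number of members called higher ran from 15 (without ND replicate 3) to 37 (without ND replicate 2). In these fits 1.04% and 3.35% of all genes tested were called higher. The number was 17 without ND replicate 4 (1.42% of all genes), 21 without ND replicate 1 (1.52%) and 23 without CDD replicate 1 (3.13%). The median log2 fold change of the members ran from 0.25 to 0.32, and 0 members were called lower. The number called higher was 15 at an adjusted p-value under 0.01 and 0 with a change of at least 1.5-fold. The shares over all genes at these thresholds are not given here. The other 10 alternatives, over tools, normalization, filters, covariates and offsets, gave 32 to 39 members higher and 0 lower. The share of all genes tested that was called higher ran from 3.36% (no filter) to 7.12% (DESeq2) in those fits. Whether the replicate numbers pair the brains was not settled. Deviations from the diet mean correlated at 0.105, -0.133, 0.117 and 0.232 between brains of the same number. Between brains of different numbers they correlated at -0.25 to 0.214. The fit with the replicate block called 32 higher and 0 lower, at a median of 0.28, where 4.35% of all genes tested were called higher. In that fit *Kif14* (adjusted p = 0.091 in edgeR, and 0.0673 with the length offset as well) and *Aurkb* were no longer called. *Cenpm* took the other sign in DESeq2 (0.0021), limma-voom (0.0022), RLE normalization (0.0006), the gene length offset (0.0406), the offset with the replicate block (0.0421) and with *Xist* as a covariate (0.0227), and ran from -0.0525 to 0.0431 with single brains left out, of which 0.0031 to 0.0431 were above 0. Over the 18 members with values in every brain, 303 results kept their direction and call, 39 kept the direction and lost the call, 8 gained it and 10 changed sign, all 10 of them *Cenpm*. The 4 brains per diet limit which of these small differences can be called, and the depth sets wide errors for the genes with the fewest reads, such as *Cenpp* (72 counts in its lowest brain).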
